A study of Homo sapiens with 2 samples.

Results

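Iron storage and iron-sulfur assembly in the human ovarian cancer line SKOV3 is described through 10 genes, FTH1, FTL, TFRC, ACO1, IREB2, NCOA4, HMOX1, CIAO1, CIAO2A and CIAO2B. Every listed transcript with one of these names was taken, which gave 23 of 47892 transcripts and 7 of 16978 genes. FTL, ACO1 and NCOA4 had no listed transcript and are not analysed here. The set was chosen by the listed values themselves, since FTH1 was far higher and CIAO2B far lower in the resistant library, so the differences of these genes are given as a description.

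The olaparib-resistant derivative of SKOV3 was compared with untreated parental SKOV3. The labels give both as the same line with a wild-type genotype. The derivative was raised under olaparib, a drug that blocks PARP1 and PARP2, at 0.5 of its IC50 for at least 3 months, and the labels do not say whether it is a clone or a pool. Each group had 1 ribosomal RNA-depleted library of total RNA, so no difference below has a replicate check and no test was made.

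Iron that is not in use is stored inside ferritin, a shell built of heavy (FTH1) and light (FTL) chains. Iron enters cells with transferrin through the receptor TFRC, and ferritin is broken down through the receptor NCOA4. The iron regulatory proteins ACO1 and IREB2 bind iron-responsive elements (IREs), hairpins in ferritin and TFRC mRNA. HMOX1 frees iron from heme. CIAO1, CIAO2B and MMS19 form the complex that hands iron-sulfur clusters to cytosolic and nuclear proteins, among them DNA polymerases and helicases, while CIAO2A serves ACO1 in particular.

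The table holds 1 normalized value per transcript and library in a unit that its header does not name, called the listed value here. Listed values summed to 47632 in resistant cells and 46879 in parental cells, and sequencing depth is unknown. Of the listed transcripts, 43558 were found by identifier in the gene annotation GENCODE release 29 (GRCh38), and 55 of these were protein-coding. For the 10 genes GENCODE annotates 68 transcripts, 37 of them protein-coding, and none of the 37 was listed. All transcripts that GENCODE gives for FTL (1), ACO1 (3) and NCOA4 (7) are protein-coding. The 23 listed ones are 16 retained-intron transcripts, which hold intron sequence that the mature mRNA lacks, and 7 processed transcripts without an open reading frame. None is thus an annotated mRNA. Of the 43558 transcripts found, 50.1% were retained-intron and 14375 were processed transcripts, so this make-up is not particular to the set. Per transcript of the set, 20.2% to 94.5% of the exon bases lie in exons of the gene's principal coding transcript. This share was 87.9% for FTH1-211, 75.9% for CIAO2B-203 and 35.5% for CIAO1-201. Reads in these bases can be shared with the mRNA, and the listed values do not tell them apart. Of 11 epithelial and ovarian marker genes 9 were listed, led by KRT8 at 318 in resistant cells and 166 in parental cells. KRT18, its partner keratin, had 5.83 in resistant cells and 14.3 in parental cells, KRT7 had 73.3 in resistant cells and 62.6 in parental cells, and ERBB2 had 3.84 in resistant cells and 5.37 in parental cells. KRT19, EPCAM and CDH1 were below 0.1 in both, and WT1 and MUC16 were not listed. Of 9 markers of immune, endothelial and fibroblast cells 1 was listed, COL1A1, at 0.203 in resistant cells and 0.198 in parental cells.

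The introns that set the leading isoforms apart from the coding transcript are shown first, read 5′ to 3′ from GENCODE release 29 on GRCh38. FTH1 and CIAO2B lie on the minus strand. Lower case marks the retained intron and capitals mark 10 bases of exon on either side.
FTH1-211, intron 3 of FTH1-201, chr11:61964892-61964986: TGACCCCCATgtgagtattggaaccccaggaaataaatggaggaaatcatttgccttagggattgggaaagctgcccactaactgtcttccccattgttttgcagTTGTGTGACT
FTH1-209, intron 2 of FTH1-201, chr11:61965113-61965368: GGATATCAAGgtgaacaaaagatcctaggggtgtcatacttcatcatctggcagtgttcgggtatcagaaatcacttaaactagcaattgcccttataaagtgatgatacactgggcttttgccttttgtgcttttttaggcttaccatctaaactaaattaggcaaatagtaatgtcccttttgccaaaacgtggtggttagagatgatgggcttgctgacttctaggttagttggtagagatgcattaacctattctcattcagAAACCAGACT
CIAO2B-203 and CIAO2B-206, intron 1 of CIAO2B-201, chr16:66934067-66934222: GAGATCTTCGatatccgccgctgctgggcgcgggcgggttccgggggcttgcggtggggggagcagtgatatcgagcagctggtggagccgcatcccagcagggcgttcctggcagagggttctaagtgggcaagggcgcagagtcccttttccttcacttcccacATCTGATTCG

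The FTH1 introns start with GT and end with AG, the usual borders, and have 95 and 256 bases. The CIAO2B intron has 156 bases, 66.0% of them G or C, and starts with AT and ends with AC. All 3 coding transcripts of CIAO2B splice it out, as 4 of the 8 coding FTH1 transcripts do with FTH1 intron 3 and 5 of the 8 with intron 2. All 3 introns lie within the coding span.

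IREs were searched on the transcript strand, and no other motif was searched. The pattern of 17 bases was a C, 5 stem bases, the loop CAGTGN and 5 stem bases, in which the stems had to pair, G-T pairs allowed. The loop is in capitals, and of the 4 TFRC sites the outermost pair is shown, beside ferritin's, because they lie at the other end of the mRNA.
FTH1, 5′ of the coding sequence, chr11:61967580-61967596, minus strand: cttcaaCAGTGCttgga
FTL, 5′ of the coding sequence, chr19:48965341-48965357, plus strand: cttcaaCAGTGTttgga
TFRC, 3′ of the coding sequence, chr3:196050985-196051001, minus strand: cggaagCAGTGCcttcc
TFRC, 3′ of the coding sequence, chr3:196050469-196050485, minus strand: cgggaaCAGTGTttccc

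The motif was found in 221 of 43558 listed transcripts (0.507%). Of the 23 transcripts of the set 1 held it, FTH1-209. The annotated FTH1-211 starts inside the element and holds 7 of its 17 bases. Each TFRC site lay in 3 coding transcripts and in none of its listed ones. A match is a description of the letters and not evidence of binding.

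**Figure D1:**
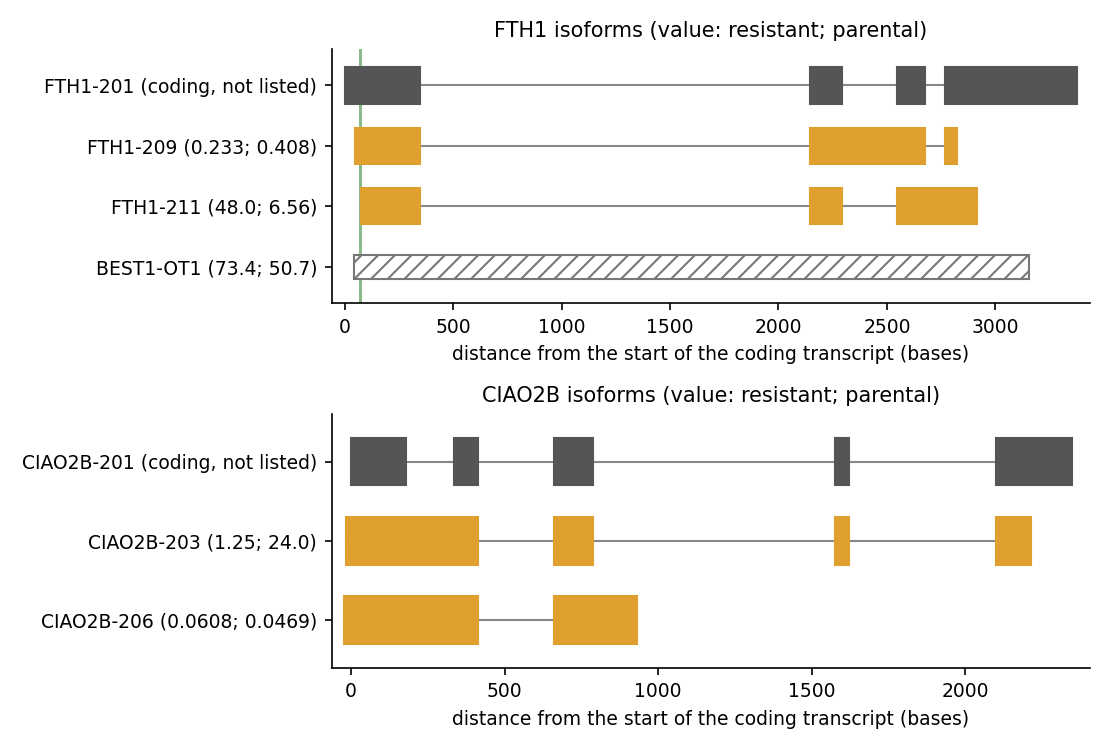
Exons (filled boxes) and introns (lines) of the FTH1 and CIAO2B transcripts by distance from the start of the coding transcript, in bases, with listed values in resistant and then parental cells beside each name. The green band is the FTH1 IRE and the hatched bar is the span of BEST1-OT1, whose exons are not given. FTH1-211 (48.0 in resistant cells and 6.56 in parental cells) and CIAO2B-203 (1.25 in resistant cells and 24.0 in parental cells) carry nearly the whole value of their genes.

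FTH1, the heavy chain that oxidizes iron as it enters ferritin (ENSG00000167996, listed over chromosome 11, 61964747 to 61967613), had a summed listed value of 48.2 in resistant cells and 6.97 in parental cells. The sum was 6.92-fold higher in the resistant library, a log2 ratio of 2.63 on the log2(value + 1) scale, and 27 of the 5767 expressed genes (mean value of at least 1) had a higher ratio. FTH1-211 had 48.0 in resistant cells and 6.56 in parental cells. FTH1-209 had 0.233 in resistant cells and 0.408 in parental cells, so that the isoforms differed in opposite directions. FTH1-211 made up 99.5% of the FTH1 value in resistant cells and 94.1% in parental cells.

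A further transcript covers the same locus under the name of another gene. BEST1-OT1, an assembled transcript with no Ensembl identifier, is listed under BEST1, a gene on the opposite strand, at chromosome 11, 61964508 to 61967619. This span contains every exon base of FTH1-209 and FTH1-211. BEST1-OT1 had 73.4 in resistant cells and 50.7 in parental cells, a 1.45-fold difference in listed value at nearly equal corresponding counts (defined below). It was the larger signal of the locus in both libraries. FTH1-named transcripts held 39.6% of the value of the locus in resistant cells and 12.1% in parental cells. With BEST1-OT1 added, the locus had 121.6 in resistant cells and 57.6 in parental cells, a log2 ratio of 1.06 in place of 2.63. The strand used in counting and the exons of BEST1-OT1 are not given, so the reads of these transcripts cannot be told apart.

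FTH1 also has near-identical copies. GENCODE annotates 25 FTH1 pseudogenes, of which 1 was listed, with a value below 1 in both libraries. Of the 50-base windows of FTH1-211, 46.0% occurred in transcripts of 15 other genes, as did 35.5% of those of FTH1-209. Reads in these windows can be shared, and the value of FTH1 is uncertain to that extent. In the other listed transcripts of the set at most 3.76% of windows were shared, and in both CIAO2B transcripts none.

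TFRC, the transferrin receptor (ENSG00000072274, chromosome 3, 196053492 to 196082090), had 10 listed transcripts that together came to 4.30 in resistant cells and 3.14 in parental cells. Its log2 ratio was 0.36, and 63.4% of expressed genes lay below it. Of the 10 transcripts 5 were higher and 5 lower in the resistant library. TFRC-209 differed most among those with at least 20 corresponding counts (defined with the deposited fold changes below), at 1.08 in resistant cells and 0.288 in parental cells, and made up 25.1% of the gene in resistant against 9.18% in parental cells. TFRC-214 had 0.973 in resistant cells and 0.575 in parental cells, and TFRC-210 had 0.562 in resistant cells and 0.297 in parental cells. At the start of the gene TFRC-208 had 0.253 in resistant cells and 0.363 in parental cells. TFRC-213 had 0.00284 in resistant cells and 0.0989 in parental cells. It is the 1 transcript of the set whose values disagree with its deposited fold change by over 0.3 on the log2 scale. By this rule 27.4% of all listed transcripts disagreed. The rule first takes off the median offset over all transcripts, by which log2 ratios of listed values stood 0.28 above the deposited fold changes. The smallest counts that match the fold change of TFRC-213 are 1 in resistant cells and 6 in parental cells, whereas its listed values differ 34.8-fold. The other 5 lay between 0.0366 and 0.592 over both libraries. The sum of TFRC thus differed little while its isoforms went both ways.

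IREB2, the iron regulatory protein that is degraded when iron is plentiful (ENSG00000136381, chromosome 15, 78438422 to 78488756), had 2.48 in resistant cells and 1.91 in parental cells. Its log2 ratio was 0.26, against a median of 0.16 over all expressed genes. IREB2-209, at the start of the gene, had 1.07 in resistant cells and 0.466 in parental cells. IREB2-207, the retained-intron form, had 1.03 in resistant cells and 0.871 in parental cells, and IREB2-206 had 0.378 in resistant cells and 0.576 in parental cells. By listed value 2 of the 3 isoforms were therefore higher and 1 lower in resistant cells. For IREB2-207 the authors' deposited log2 fold change was −0.04, of the opposite sign.

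HMOX1, the inducible heme oxygenase (ENSG00000100292, chromosome 22, 35381093 to 35390293), lay below a mean of 1 at 0.602 in resistant cells and 0.264 in parental cells (log2 ratio 0.34). HMOX1-203, at the start of the gene, had 0.305 in resistant cells and 0.219 in parental cells. HMOX1-204, which lies 3′ of it without overlap, had 0.298 in resistant cells and 0.0444 in parental cells, a 6.70-fold difference that corresponds to counts of 46 and 10.

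CIAO2B, the targeting subunit that binds MMS19 (ENSG00000166595, chromosome 16, 66932186 to 66934423), had 1.31 in resistant cells and 24.0 in parental cells. The value was 18.4-fold lower in the resistant library, a log2 ratio of −3.44, and 3 expressed genes had a lower ratio. CIAO2B-203 had 1.25 in resistant cells and 24.0 in parental cells and made up 99.8% of the parental value. CIAO2B-206, which keeps the same intron 1 but ends within intron 3, had 0.0608 in resistant cells and 0.0469 in parental cells, which correspond to counts of 3 and 4. The difference of CIAO2B thus came from 1 isoform.

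CIAO1, the WD-repeat scaffold of the same complex (ENSG00000144021, chromosome 2, 96266159 to 96273349), had 12.0 in resistant cells and 5.27 in parental cells, a log2 ratio of 1.05. All 3 isoforms were higher in the resistant library. CIAO1-201 had 10.9 in resistant cells and 4.63 in parental cells, CIAO1-204 had 0.748 in resistant cells and 0.513 in parental cells, and CIAO1-202 had 0.382 in resistant cells and 0.121 in parental cells. The paralogue of CIAO2B, CIAO2A (ENSG00000166797, chromosome 15, 64072565 to 64073817), had 1 listed transcript at 0.0422 in resistant cells and 0.0337 in parental cells, which corresponds to 3 counts in each library. In these libraries the summed listed values of CIAO1 and CIAO2B differed in opposite directions. No coding transcript of either gene was listed, so the subunits were not measured and their mRNA has no value of its own. Of the exon bases of CIAO2B-203 75.9%, and of those of CIAO1-201 35.5%, are shared with the coding transcript.

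**Figure D2:**
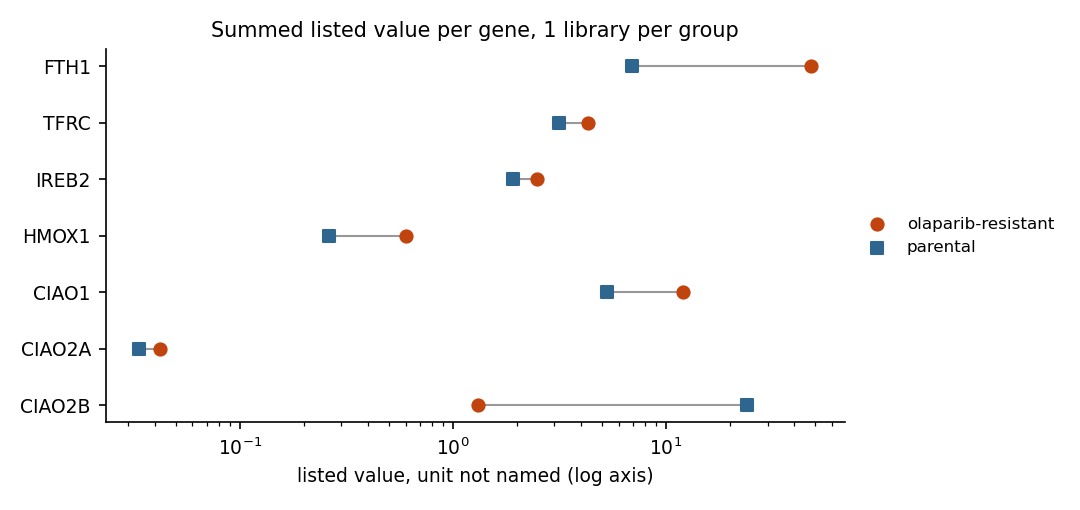
Summed listed value of each gene (log axis, unit not named) in resistant and then parental cells, 1 library each. FTH1 (48.2 in resistant cells and 6.97 in parental cells) and CIAO2B (1.31 in resistant cells and 24.0 in parental cells) are the widest pairs. Of the 7 genes 6 are higher in the resistant library, CIAO2A at 3 counts in each. Of all expressed genes 61.9% are higher, a share over genes with a mean of at least 1, which HMOX1 and CIAO2A do not reach.

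**Figure D3:**
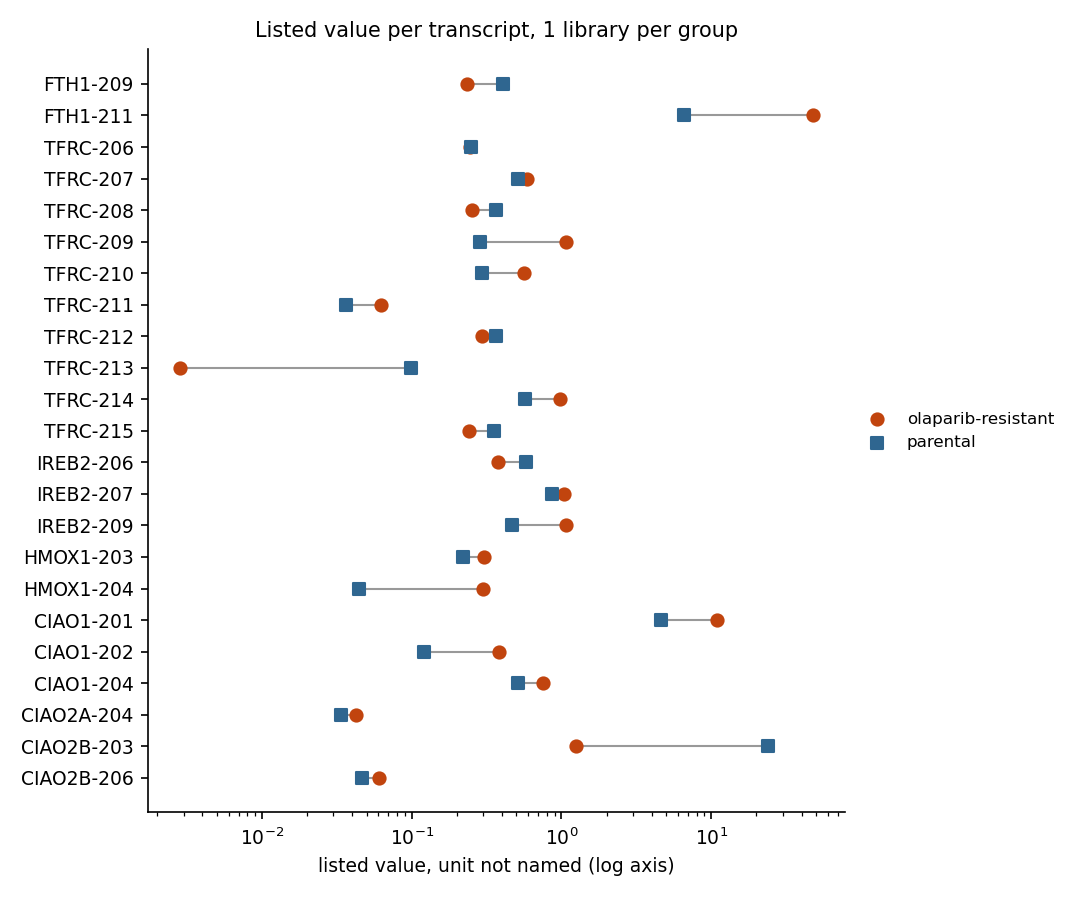
Listed value of each of the 23 transcripts (log axis, unit not named) in resistant and then parental cells. Of these, 15 are higher and 8 lower in the resistant library, where 57.4% of all listed transcripts are higher, and the 10 TFRC isoforms split into 5 and 5. IREB2-207, TFRC-207 and CIAO2B-206 are higher in listed value but have negative deposited log2 fold changes (−0.04, −0.09 and −0.16).

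At a threshold of 2-fold, applied here and to all counts of genes below on the log2(value + 1) scale, which holds low genes under the threshold, FTH1 and CIAO1 were higher, 2 of the 7 genes, beside 8.50% of all expressed genes. CIAO2B was lower, 1 of the 7, beside 4.37% of all expressed genes. These contrasts chose the set, so nothing is read from the shares. CIAO1 passed the threshold by little: its log2 ratio was 0.85 after rescaling all values to a median gene ratio of 1, and 0.73 with a pseudocount of 5. HMOX1 and CIAO2A are among the 7 although they lay below a mean of 1. Among the 3 transcripts of the set with a mean of at least 1, FTH1-211 and CIAO1-201 were at least 2-fold higher, beside 11.8% of all such transcripts, and CIAO2B-203 was lower, beside 7.42%.

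**Figure D4:**
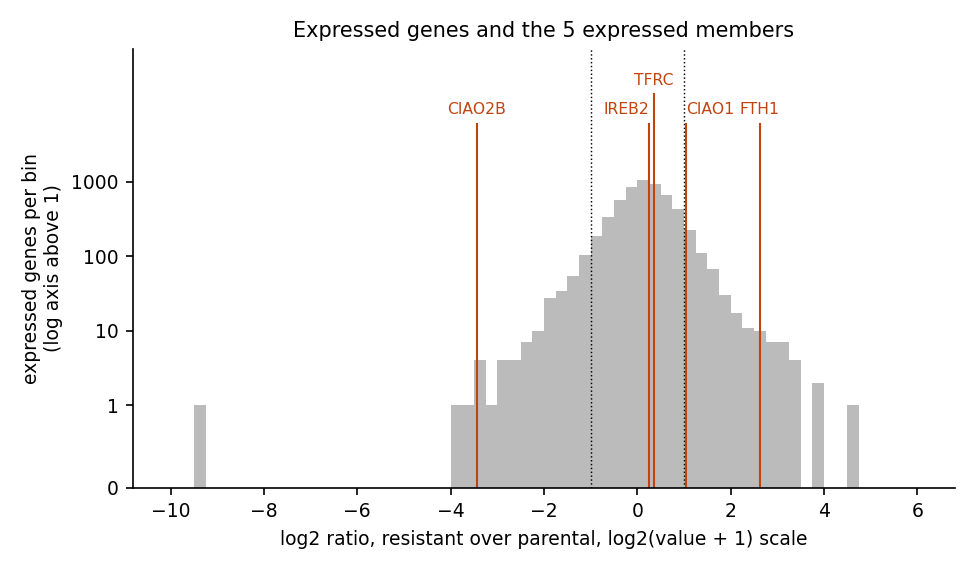
Log2 ratios, resistant over parental on the log2(value + 1) scale, of 5767 expressed genes (grey bars, log axis above 1 gene), with the 5 expressed genes of the set as red lines and dotted lines at 2-fold. FTH1 (2.63) and CIAO2B (−3.44) lie in the tails and TFRC (0.36) and IREB2 (0.26) near the median of 0.16.

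In the authors' deposited table the log2 fold change of FTH1-211 was 2.59 (adjusted p = 1.61e-08) and that of FTH1-209 was −1.08 (adjusted p = 0.075). The authors' deposited table gives CIAO2B-203 a log2 fold change of −4.54 (adjusted p = 9.16e-20) and CIAO1-201 one of 0.94 (adjusted p = 0.0475). HMOX1-204 (2.44, adjusted p = 0.000445) and TFRC-209 (1.60, adjusted p = 0.00186) complete the 4 higher and 1 lower of the 23 transcripts with an adjusted p under 0.05 in the authors' deposited table. Over all listed transcripts of that deposited table, 23.6% were higher and 22.3% lower by this rule. For BEST1-OT1 the authors' deposited table has 0.25 (adjusted p = 0.661). The authors' p-values compare 2 libraries, not 2 conditions.

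Each of these fold changes can be written with whole counts, once constants of 0.114 (resistant) and 0.136 (parental) and a library term of 0.25 are allowed for, to within 3 units of the last decimal (at most 9 decimals). The pair is not unique: up to a resistant count of 200000 each transcript of the set matched between 20 and 2305 pairs, so a match by itself shows little. The smallest pair, taken as the corresponding counts, was 6435 in resistant cells and 1276 in parental cells for FTH1-211. The counts were 132 in resistant cells and 3663 in parental cells for CIAO2B-203, 3649 in resistant cells and 2256 in parental cells for CIAO1-201, and 10793 in resistant cells and 10800 in parental cells for BEST1-OT1. None of the 23 transcripts corresponded to a count of 0, against 22.3% of all listed transcripts. In the 18 transcripts of the set with over 20 counts in both libraries, the count per listed value was set against length. Per kilobase of locus, introns included, it varied at most 1.04-fold within a library, and per kilobase of exon 22.7-fold. It lay between 47.2 and 48.9 per kilobase of locus in resistant cells and between 68.5 and 69.5 in parental cells. Within a library the listed values thus behave as counts divided by locus length, so levels are not compared between genes. Equal counts of a transcript gave a higher listed value in the resistant library. The nearly equal counts of BEST1-OT1 thus go with listed values 1.45-fold apart. The counts need not be numbers of reads. Gene sums, isoform shares, the filter on the mean and the log2(value + 1) ratios with their ranks depend on the scale of the listed values too. By sums of corresponding counts the log2 ratio of IREB2 was 0.52 and that of TFRC 0.18.

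The wider pathway was described with 8 gene lists of 157 genes, of which 122 were listed and 74 expressed. By the 2-fold threshold 10 of the 74 (13.5%) were higher, beside 8.50% of all expressed genes, and 3 (4.05%) were lower, beside 4.37%. These include FTH1, CIAO1 and CIAO2B, whose values chose the set. Without its genes 8 of 69 (11.6%) were higher and 2 (2.90%) lower, with a median log2 ratio of 0.11. Over all expressed genes 490 were higher and 252 lower, a split that became 342 and 362 after rescaling to a median gene ratio of 1. The median log2 ratio of the 74 was 0.12, against 0.16 over all expressed genes. After the same rescaling 6 of the 74 were higher and 7 lower.

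In iron storage 4 of 9 genes were expressed, and beside FTH1 none was past the threshold. The iron chaperone PCBP2 had 29.8 in resistant cells and 25.8 in parental cells (log2 ratio 0.20, and −0.02 after the rescaling), and HERC2 had a log2 ratio of 0.29. PCBP4 had 0.492 in resistant cells and 1.71 in parental cells, 3.47-fold lower in listed value, with a log2 ratio of −0.86. This ratio became −1.10 once transcripts matching a count of 0 were taken as 0 in that library. It was −0.28 without transcripts whose values disagree with the deposited fold change and −0.29 with a pseudocount of 5. In uptake and export 5 of 19 were expressed and 1 was higher. SLC11A2, the divalent metal transporter that moves iron out of endosomes, had 6.73 in resistant cells and 0.606 in parental cells (log2 ratio 2.27), mostly from the retained-intron transcript SLC11A2-222 at 4.95 in resistant cells and 0.103 in parental cells. The other transferrin receptor gene, TFR2, had 4.25 in resistant cells and 5.77 in parental cells (−0.37), the ferric reductase CYBRD1 had a log2 ratio of 0.32 and MELTF one of 0.01.

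Among the regulators of iron sensing 6 of 18 were expressed, all 6 with a log2 ratio above 0, as 61.9% of all expressed genes had, and 2 were at least 2-fold higher. FBXL5, the iron-sensing ubiquitin ligase subunit that removes IREB2, had 5.86 in resistant cells and 2.41 in parental cells (log2 ratio 1.01, 0.83 after the rescaling and 0.55 with a pseudocount of 5). EPAS1, the hypoxia-inducible factor whose mRNA carries an IRE, had 27.7 in resistant cells and 10.4 in parental cells (1.33). HIF1A had a log2 ratio of 0.89 and SMAD4 one of 0.57. The list median was 0.73.

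Of 22 heme genes 9 were expressed, 1 higher and 1 lower, with a median of −0.01. FECH, which inserts iron into protoporphyrin and itself holds an iron-sulfur cluster, had 2.60 in resistant cells and 0.759 in parental cells (log2 ratio 1.03, 0.90 after the rescaling and 0.50 in its transcript of largest mean). ALAD, an early enzyme of heme synthesis, had 0.484 in resistant cells and 2.12 in parental cells (−1.07), and ALAD-208, the transcript that differed most, corresponds to a resistant count of 0. Its ratio was −0.27 without transcripts whose values disagree with the deposited fold change and −0.38 with a pseudocount of 5. The decarboxylase UROD had a log2 ratio of −0.52 and the transporter ABCB6 one of 0.67.

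In mitochondrial iron-sulfur assembly 9 of 22 were expressed, 2 higher and 1 lower, with a median of 0.13. The chaperone HSPA9 had 12.7 in resistant cells and 4.66 in parental cells (log2 ratio 1.28, and 0.87 with a pseudocount of 5), and the iron importer SLC25A28 had 2.13 in resistant cells and 0.532 in parental cells (1.03, 0.91 after the rescaling and 0.72 without disagreeing transcripts). HSCB, the co-chaperone partner of HSPA9, had 2.81 in resistant cells and 6.89 in parental cells (−1.05), and HSCB-207, the transcript that differed most, corresponds to a resistant count of 0. Its ratio was −0.11 without such disagreeing transcripts, and likewise in its transcript of largest mean. The ferredoxin FDX2 had a log2 ratio of 0.89.

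In cytosolic assembly 7 of 12 were expressed, and CIAO1 and CIAO2B were the members at least 2-fold apart. MMS19, the third subunit of their complex, had 11.3 in resistant cells and 5.26 in parental cells (log2 ratio 0.98). Its transcript of largest mean, MMS19-219, passed the threshold at 7.49 in resistant cells and 0.155 in parental cells (2.88). The other listed MMS19 transcripts together were lower in the resistant library. The scaffold protein gene NUBP2 (0.25), NDOR1 (0.06) and CIAPIN1 (0.04) were close to level. Their signs turned in 1 or more of the alternatives listed with the processing, as that of MELTF did.

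Of 36 genes for iron-sulfur client proteins 25 were expressed, 2 of them higher and none lower, with a median of −0.03. NDUFS8, a complex I subunit, had 19.2 in resistant cells and 5.57 in parental cells (log2 ratio 1.62), and ETFDH had 2.39 in resistant cells and 0.194 in parental cells, with a ratio of 0.97 in its transcript of largest mean and 0.51 with a pseudocount of 5. The helicase DDX11 and DPH1, which acts in diphthamide synthesis, were each at −0.94, with DDX11 at 5.91 in resistant cells and 12.2 in parental cells. Both were past 2-fold lower after the rescaling, at −1.14. Among NRF2 and ferroptosis defence genes 9 of 19 were expressed and none was past the threshold, at a median of −0.06. NQO1, a standard NRF2 target, had 1.10 in resistant cells and 2.75 in parental cells (−0.84), 2.50-fold lower in listed value. TXNRD1 had a log2 ratio of 0.81 and was 2.20-fold higher in listed value, as GCLC, named after its values were seen, was 2.53-fold. SLC3A2 had a log2 ratio of −0.82, which passed the threshold at −1.02 after the rescaling and −2.05 in its transcript of largest mean. NFE2L2, which encodes NRF2, had a log2 ratio of −0.65.

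**Figure D5:**
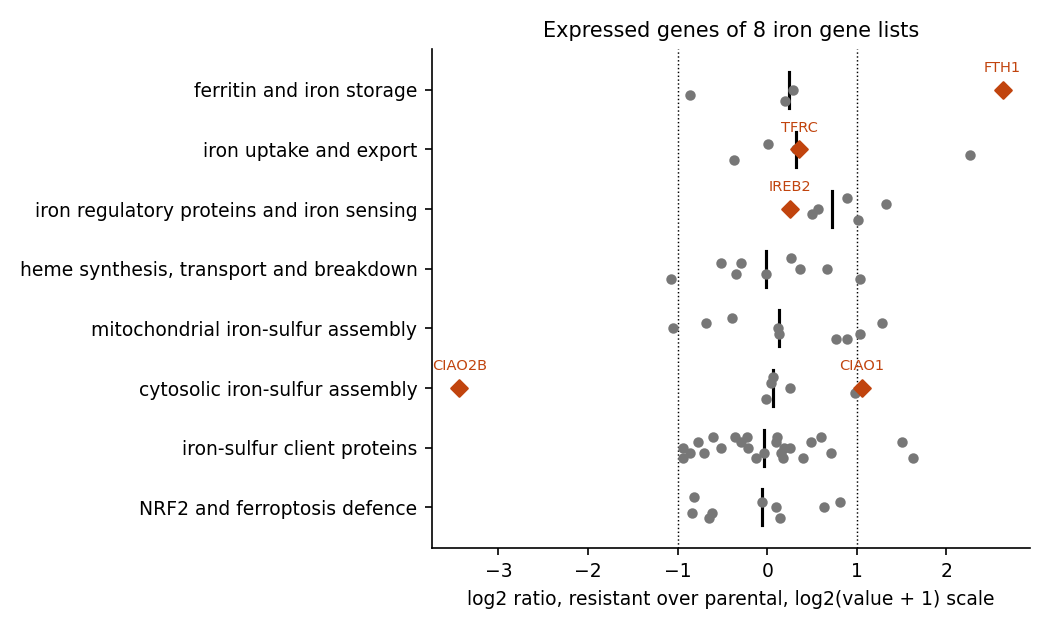
Log2 ratios, resistant over parental on the log2(value + 1) scale, of the expressed genes of 8 iron gene lists (grey points), with genes of the set as red diamonds, list medians as black bars and dotted lines at 2-fold. FTH1 (2.63) stands apart from the other storage genes, and CIAO2B (−3.44) from the other cytosolic assembly genes. The set was chosen by these differences.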

How the data were processed

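Per the labels' protocols, total RNA was extracted with Trizol and ribosomal RNA was removed. The submitters' processing notes name HISAT2, StringTie and the mouse build mm10, whereas the deposited identifiers and loci are human; 98.4% of the transcripts found in GENCODE release 29 had the same GRCh38 start and end. The authors deposited 1 normalized value per transcript and library, a log2 fold change and p-values before and after adjustment, per the file headers. Depth, the counting strand and the authors' test are not given in the sources used here.

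Values were summed per gene name (Python 3.11.15, pandas 2.3.3, numpy 2.4.6), compared as log2(value + 1), resistant minus parental, and counted at 2-fold among genes with a mean of at least 1. The scripts were tested on simulated data. Isoform structure and sequence came from GENCODE, against the longest coding transcript that GENCODE marks as principal. The members and lists were chosen with earlier results of these data known. Named were all members, each transcript with a value of at least 1 or the leading one, and up to 4 expressed genes per list with the largest absolute log2 ratio; the other transcripts named were chosen after their values were seen. Alternatives are below.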

Additional observations from a re-analysis of the deposited data

How the results depend on the processing

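Over 50 recalculated log2 ratios of the 7 genes, 47 kept their direction and side of 2-fold. Several of the 47 equal the main ratio by construction. No transcript of the set corresponded to a count of 0, only TFRC had a disagreeing transcript, and CIAO2A had 1 transcript. The other 3 were CIAO1, at 0.73 with a pseudocount of 5, 0.85 after rescaling to a median gene ratio of 1 and 0.93 with sums of corresponding counts. FTH1, by the transcripts of its name, was thus the only gene of the set at least 2-fold higher under each of these 3 settings. BEST1-OT1 was not added under them. FTH1 ranged from 1.06, with BEST1-OT1 added, to 2.77 and CIAO2B from −4.51 to −2.20. The settings with counts and with BEST1-OT1 were chosen after seeing the data. Expressed genes at least 2-fold higher and lower numbered 957 and 434 with a pseudocount of 0.1, 104 and 68 with 5, 198 and 102 with a mean of at least 5, and 342 and 362 after rescaling, where the share of higher calls was 48.6% in place of 66.0%. Wider iron genes numbered 17 and 11, 4 and 1, 5 and 1, and 6 and 7 in the same settings, and 10 and 7 when each gene was read from 1 transcript, that of largest mean. Of 186 recalculated ratios of the 31 named list genes, 145 kept their direction and side of 2-fold, 17 dropped under it, 17 newly passed it and 7 changed sign: after rescaling CIAPIN1 (−0.15), MELTF (−0.13), NDOR1 (−0.094) and PCBP2 (−0.022), and with 1 transcript per gene MELTF (−0.040), NDOR1 (−0.47) and NUBP2 (−0.19). The cause was not tested. Some of the 145 likewise equal the main ratio by construction, as for NQO1, which had 1 transcript. Leaving out a replicate and tests were not possible with 1 library per group. No paired analysis was possible because each group has 1 library.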
